A study of Mus musculus with 48 samples.

Results

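The 32 short interspersed nuclear element (SINE) types of the mouse repeat annotation were followed across 20 conditions of induced reprogramming. They were every repeat row whose name begins with B1, B2, B3, B4, PB1, ID, RSINE or MIR, matched by name, and they made up 32 of 1554 repeat types in a table of 25922 features. By family there were 10 B1 types, 5 proto-B1 types (named PB1), 5 types of B2 and B3, 4 types grouped as B4 (B4, B4A, RSINE1 and ID_B1), 4 ID types and 4 MIR types. SINEs held 24246438 of the 85767741 reads on repeats, or 28.27%. With the ribosomal RNA rows set aside, which held 54.54% of the repeat reads, SINEs held 62.18% of the remainder.

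SINEs are short repeats that RNA polymerase III can transcribe from a promoter inside the element. They encode no protein, and families such as B1 and B2 are copied through the enzymes of LINE-1 elements. B1 and proto-B1 elements descend from 7SL RNA, the RNA of the signal recognition particle, whereas B2, B3, ID and MIR elements descend from tRNAs and B4 elements join an ID-like part to a B1-like part. B1_Mm, B1_Mus1, B1_Mus2 and the B2_Mm types are among the youngest in the mouse genome, and MIR is an ancient family shared by mammals. Because many copies lie inside genes, a read on a SINE can also come from an mRNA or an intron, and the table does not separate these sources.

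The study compared reprogramming driven by 2 polycistronic cassettes, MKOS and OKMS, which carry Oct4, Sox2, Klf4 and c-Myc in different orders, OKMS with a shorter form of Klf4. Each cassette was targeted into the Sp3 locus of TNG cells, an embryonic stem cell (ESC) line with a Nanog-GFP reporter, and was induced by doxycycline through a reverse transactivator under the CAG promoter. From bulk RNA, 48 libraries were made with a multiplexed method that reads the 5′ end of transcripts. Transgenic mouse embryonic fibroblasts (MEFs) came from chimeric embryos and were mixed with wild-type MEFs for reprogramming.

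The conditions were as follows. Wild-type (WT), MKOS and OKMS MEFs had 2 libraries each. At day 10 of doxycycline with vitamin C, cells sorted as negative for surface CD44 were taken from both cultures and divided into ICAM1- Nanog-GFP- (2NG-), ICAM1+ Nanog-GFP- (3NG-) and ICAM1+ Nanog-GFP+ (3NG+) populations that were positive for E-cadherin (E-CAD+), and OKMS cultures also gave E-CAD- 2NG- and 3NG- cells, for 8 conditions of 3 libraries. The sample protocol gives the culture as 10 or 15 days. Pluripotent lines had 2 libraries each. They were E14 ESCs, TNG ESCs, TNG MKOS ESCs and TNG OKMS ESCs, MKOS and OKMS induced pluripotent stem cells (iPSCs) kept without doxycycline (-dox) or in 2i medium, which blocks the MEK and GSK3 kinases, and D6 iPSCs, 1 line with a piggyBac MKOS insertion. The sample protocol puts MEFs and ESCs in medium with LIF, whereas the study's methods name FGF2 and heparin for MEFs and LIF for ESCs and iPSCs. The labels do not say which libraries were separate cultures, so p-values measure only the spread between these libraries.

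Libraries held 1429717 to 14174725 reads on transcripts, and levels are given as reads-per-million values relative to them (RPM). The shallowest library was OKMS 3NG+ replicate 2, where 3 reads equal 2.10 RPM, and in the deepest 3 reads equal 0.212 RPM. All 32 SINE types passed the filter on low counts, the lowest count of any type in any library being 16 reads. Repeats took 14.2% to 33.1% of all reads, the highest share being in MKOS 3NG+ replicate 1. Ribosomal RNA (rRNA) rows took 20.6% of all reads in that library against 9.48% and 10.96% in the other MKOS 3NG+ libraries. They took 13.2% to 22.2% in MEFs and 6.49% to 11.6% in ESCs, so these ranges did not overlap, and the part of rRNA in the SINE levels was not tested. Closely related types share reads, so the division of reads between B2_Mm1a and B2_Mm1t, or between B1_Mm and the B1_Mus types, is uncertain. Reads from both strands were counted together.

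The labels were compared with marker genes. The fibroblast list (Col1a1, Col1a2, Col3a1, Postn, Thy1, Twist2) summed to 2830 to 4930 RPM in MEFs and to 2.91 to 8.80 RPM in ESCs. Nanog had no read in any of the 6 MEF libraries and 49.0 to 126 RPM in ESCs. Nanog reached 51.1 to 97.3 RPM in the 3NG+ libraries and 17.9 to 75.7 RPM in the E-CAD+ 3NG- libraries, so the ranges overlapped through MKOS 3NG- replicate 3, at 75.7 RPM. Cdh1, which encodes E-cadherin, was 4.24 to 51.5 RPM in E-CAD- cells and 117 to 183 RPM in E-CAD+ NG- cells. Cd44, which encodes the surface protein the day 10 cells were sorted to lack, did not follow the sort in every population at the level of RNA. It was 65.4 and 119 RPM in WT MEFs, 104 and 122 RPM in MKOS MEFs and 252 and 361 RPM in OKMS MEFs, and 0.174 to 1.20 RPM in ESCs. OKMS E-CAD+ 3NG- libraries had 135, 125 and 9.18 RPM and OKMS E-CAD- 3NG- libraries 158, 145 and 96.1 RPM, so 5 of these 6 were within the range of the WT and MKOS MEFs or above it. MKOS 3NG- libraries had 21.1 to 30.9 RPM.

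Some libraries stood apart from the others of their condition. MKOS iPSCs -dox had summed SINE levels of 60821 and 117849 RPM, and OKMS iPSCs -dox had 146816 and 76198 RPM. OKMS E-CAD+ 3NG- replicate 3 had 68308 RPM against 45160 and 48745 RPM. Its 6 pluripotency markers (Nanog, Zfp42, Dppa5a, Esrrb, Tdgf1, Pou5f1) summed to 5513 RPM against 2336 and 1634 RPM, with Dppa5a the most abundant in each. Its Cd44 was 9.18 RPM against 135 and 125 RPM, and the part of these differences in the SINE level was not tested. MKOS 3NG+ replicate 1 had 138424 RPM against 99704 and 104785 RPM. Counts that rest on these libraries are given below with each library left out in turn.

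Summed over the 32 types, SINE reads were lowest in MEFs and highest in pluripotent and Nanog-GFP+ cells. MEF libraries held 14269 to 26987 RPM, with a median of 16739. NG- libraries held 41231 to 71061 RPM with a median of 52547, and no NG- library overlapped a MEF library. The 3NG+ libraries held 77574 to 138424 RPM with a median of 99722, above every NG- library. ESC libraries held 68940 to 113647 RPM with a median of 84631, and iPSC libraries 60821 to 146816 RPM with a median of 108653. As a share of all reads, SINEs made up 1.15% to 2.19% in MEFs and 5.50% to 9.06% in ESCs. In these bulk samples, fewer cells of a type and less RNA per cell cannot be told apart.

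**Figure D1:**
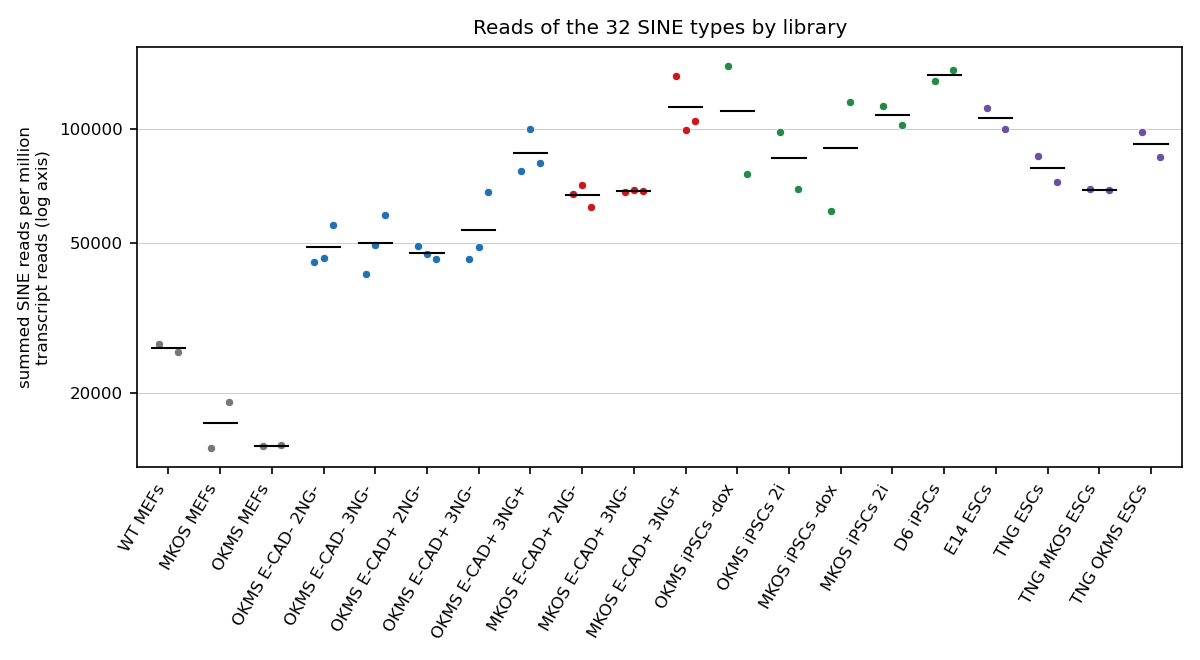
Summed level of the 32 SINE types in RPM (log axis) in each of the 48 libraries, with each condition's mean as a black line. Grey points are MEFs, blue OKMS and red MKOS sorted cells, green iPSCs and purple ESCs. MEF libraries sit at 14269 to 26987, NG- libraries at 41231 to 71061 and 3NG+ libraries at 77574 to 138424.

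In order of condition means, OKMS MEFs (14487 ± 54.2, SD, n = 2), MKOS MEFs (16610 ± 3311) and WT MEFs (26320 ± 944) were lowest. The WT MEF libraries did not overlap either transgenic MEF condition. The OKMS 2NG- and 3NG- conditions followed at 47038 to 54071 RPM, and these 4 conditions overlapped their neighbours among themselves. MKOS 2NG- cells (66912 ± 4407, n = 3) and 3NG- cells (68568 ± 420, n = 3) overlapped each other and TNG MKOS ESCs (69063 ± 175, n = 2). At the top, MKOS 3NG+ cells (114304 ± 21042, n = 3) overlapped D6 iPSCs (138679 ± 6383, n = 2). The neighbours among ESCs, iPSCs and OKMS 3NG+ cells overlapped in most cases, the exceptions being TNG MKOS against TNG ESCs and TNG OKMS against E14 ESCs.

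Most SINE reads fell on young B2 types. B2_Mm1a held 33.29% of SINE reads over all libraries, B2_Mm1t 26.77% and B2_Mm2 23.25%. The next were B3 (2.475%), B1_Mus2 (2.391%), B1_Mus1 (2.382%), ID_B1 (1.571%) and B1_Mm (1.518%). No other type reached 1% of SINE reads. The share of the B2 family was 61.9% to 79.9% in MEFs and 85.2% to 89.7% in ESCs, without overlap.

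A type's total genomic length differs widely, so levels between types were compared only per annotated megabase (Mb). Averaged over all libraries, B2_Mm1a gave 7782 RPM per Mb and B2_Mm1t 5028. B2_Mm2 gave 1191 RPM per Mb over 14.01 Mb of annotated copies, while B3, with 25.1 Mb, gave 71.1. Among 7SL-derived types, PB1D11 had the highest level per length, at 255 RPM per Mb over 1.58 Mb, ahead of B1_Mm (191), B1_Mus2 (188) and B1_Mus1 (133). The other 6 B1 types beside B1_Mur3 (70.3) lay between 39.3 and 49.4 RPM per Mb. MIR types were lowest, at 16.0 to 26.5 RPM per Mb. PB1D11 also stood high in MEFs, at 196 RPM per Mb, where B1_Mm was at 38.7. PB1D11 and the 4.5SRNA row, a structural RNA outside the SINE types, had their extremes in the same libraries. Both were highest in OKMS E-CAD- 2NG- replicate 3 (830 and 4274 RPM) and lowest in MKOS 3NG+ replicate 2 (198 and 895 RPM). Whether reads are divided between these rows was not tested.

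**Figure D2:**
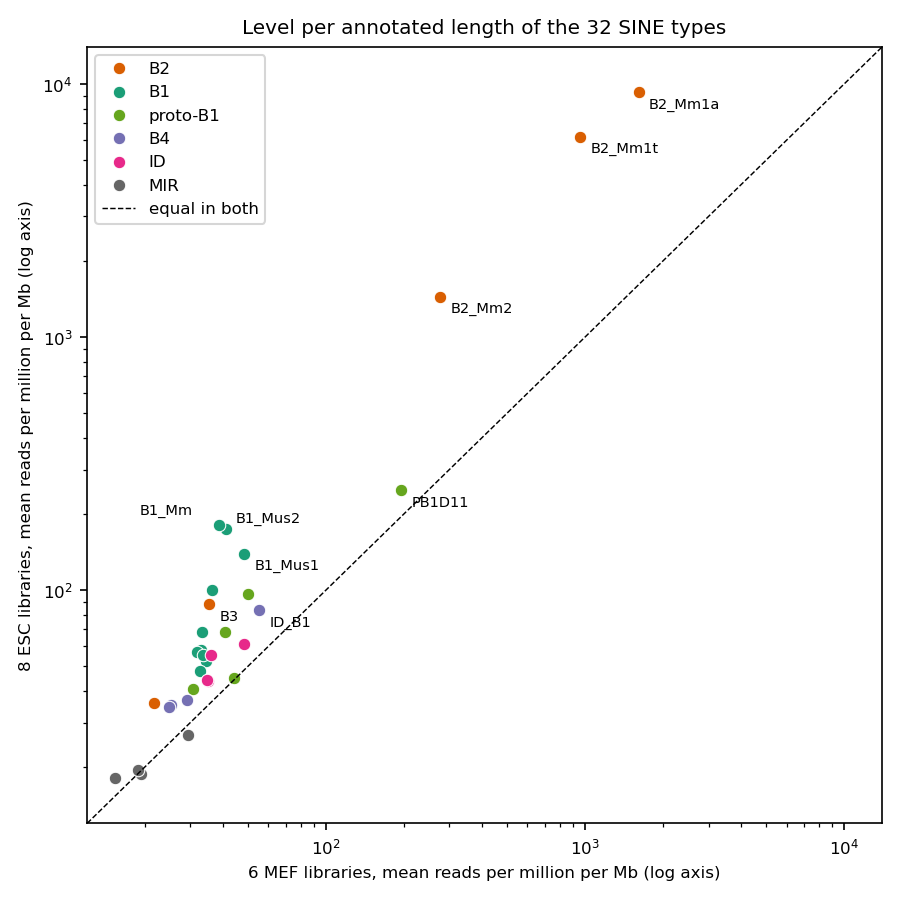
Mean level per annotated length (RPM per Mb, log axes) of the 32 SINE types in the 6 MEF libraries (x) and the 8 ESC libraries (y), coloured by family, with a dashed line where both are equal. B2_Mm1a lies at 1611 in MEFs and 9309 in ESCs, and the MIR types lie close to the line near 15 to 29.

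ESCs were compared with MEFs to set the ends of the path. Of the 32 SINE types, 23 were higher in ESCs and 0 were lower (edgeR quasi-likelihood test, Benjamini-Hochberg adjusted p of at most 0.05 over 16930 features). Among all features tested 57.4% were called and 28.3% were called higher. The median log2 fold change was 0.59 over SINE types and 0.00 over all features. All 10 B1, all 5 B2 and B3 and all 4 B4 types were called, with 3 of 5 proto-B1 types, 1 of 4 ID types (ID4) and 0 of 4 MIR types (0 also at an unadjusted p under 0.05). In the same fit, 14 of 99 LINE-1 types were higher and 6 lower, and of 983 other repeat types 262 were higher and 55 lower. DESeq2 called 21 SINE types, all higher. Some calls rested on single libraries. B1F2 lost its call without TNG MKOS ESCs replicate 2, MKOS MEFs replicate 1 or OKMS MEFs replicate 1 (log2 fold change 0.38 to 0.40). PB1D10 lost its call without any 1 of these, E14 ESCs replicate 1 or WT MEFs replicate 2 (0.28 to 0.34). B4A lost its call without MKOS MEFs replicate 1 (0.25). ID4_ gained a call without TNG MKOS ESCs replicate 1 or OKMS MEFs replicate 2, and PB1D11 without MKOS MEFs replicate 2.

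The B2_Mm types differed most. B2_Mm1t was 2374 to 5739 RPM in the 6 MEF libraries (mean 3679) and 18338 to 31606 RPM in the 8 ESC libraries (mean 23878), a log2 fold change of 2.77 (SE 0.17, adjusted p = 8.991e-18). B2_Mm1a was 3176 to 7638 RPM in MEFs and 20990 to 38367 in ESCs, and B2_Mm2 2356 to 6697 and 16412 to 28015, with log2 fold changes of 2.58 and 2.49. Neither overlapped between the groups. WT MEFs were the highest MEFs for all 3, at 7638 and 7605 RPM of B2_Mm1a against 3176 to 4255 in transgenic MEFs. B3, an older relative, differed less, from 667 to 1120 RPM in MEFs to 1676 to 2863 in ESCs, a log2 fold change of 1.29 (SE 0.12).

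Within the B1 family, young types had larger log2 fold changes than old ones. B1_Mm was 154 and 235 RPM in MKOS MEFs, 173 and 189 in OKMS MEFs and 268 and 307 in WT MEFs, against 630 to 1471 RPM in ESCs. Its log2 fold change was 2.18 (SE 0.18, adjusted p = 1.301e-13), followed by B1_Mus2 at 2.02 and B1_Mus1 at 1.48. B1_Mur3 reached 1.45, while B1_Mur4, B1_Mur2 and B1_Mur1 were at 0.77, 0.70 and 0.57. The B1F types, older still, were at 1.01 (B1F1), 0.84 (B1F) and 0.51 (B1F2). The order is a description over types that share reads.

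In the other families, log2 fold changes ran up to 0.90, for PB1D9, above 5 of the 10 B1 types. PB1D9 was 124 to 184 RPM in MEFs and 188 to 428 RPM in ESCs, without overlap. ID_B1, the most abundant of the B4 group, was 700 to 966 RPM in MEFs and 1051 to 1483 in ESCs, which did not overlap (log2 fold change 0.58, SE 0.10). PB1D11 was 243 to 443 RPM in MEFs and 239 to 687 in ESCs, with a log2 fold change of 0.26 (95% interval -0.04 to 0.55). MIRb was 77.8 to 162 RPM in MEFs and 66.3 to 150 in ESCs, with a log2 fold change of -0.07 (95% interval -0.39 to 0.24). ID4_, the ID type with most reads, was 34.2 to 107 and 42.8 to 132 RPM (0.29, 95% interval -0.07 to 0.65). Intervals assume a normal error of the log2 fold change.

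**Figure D3:**
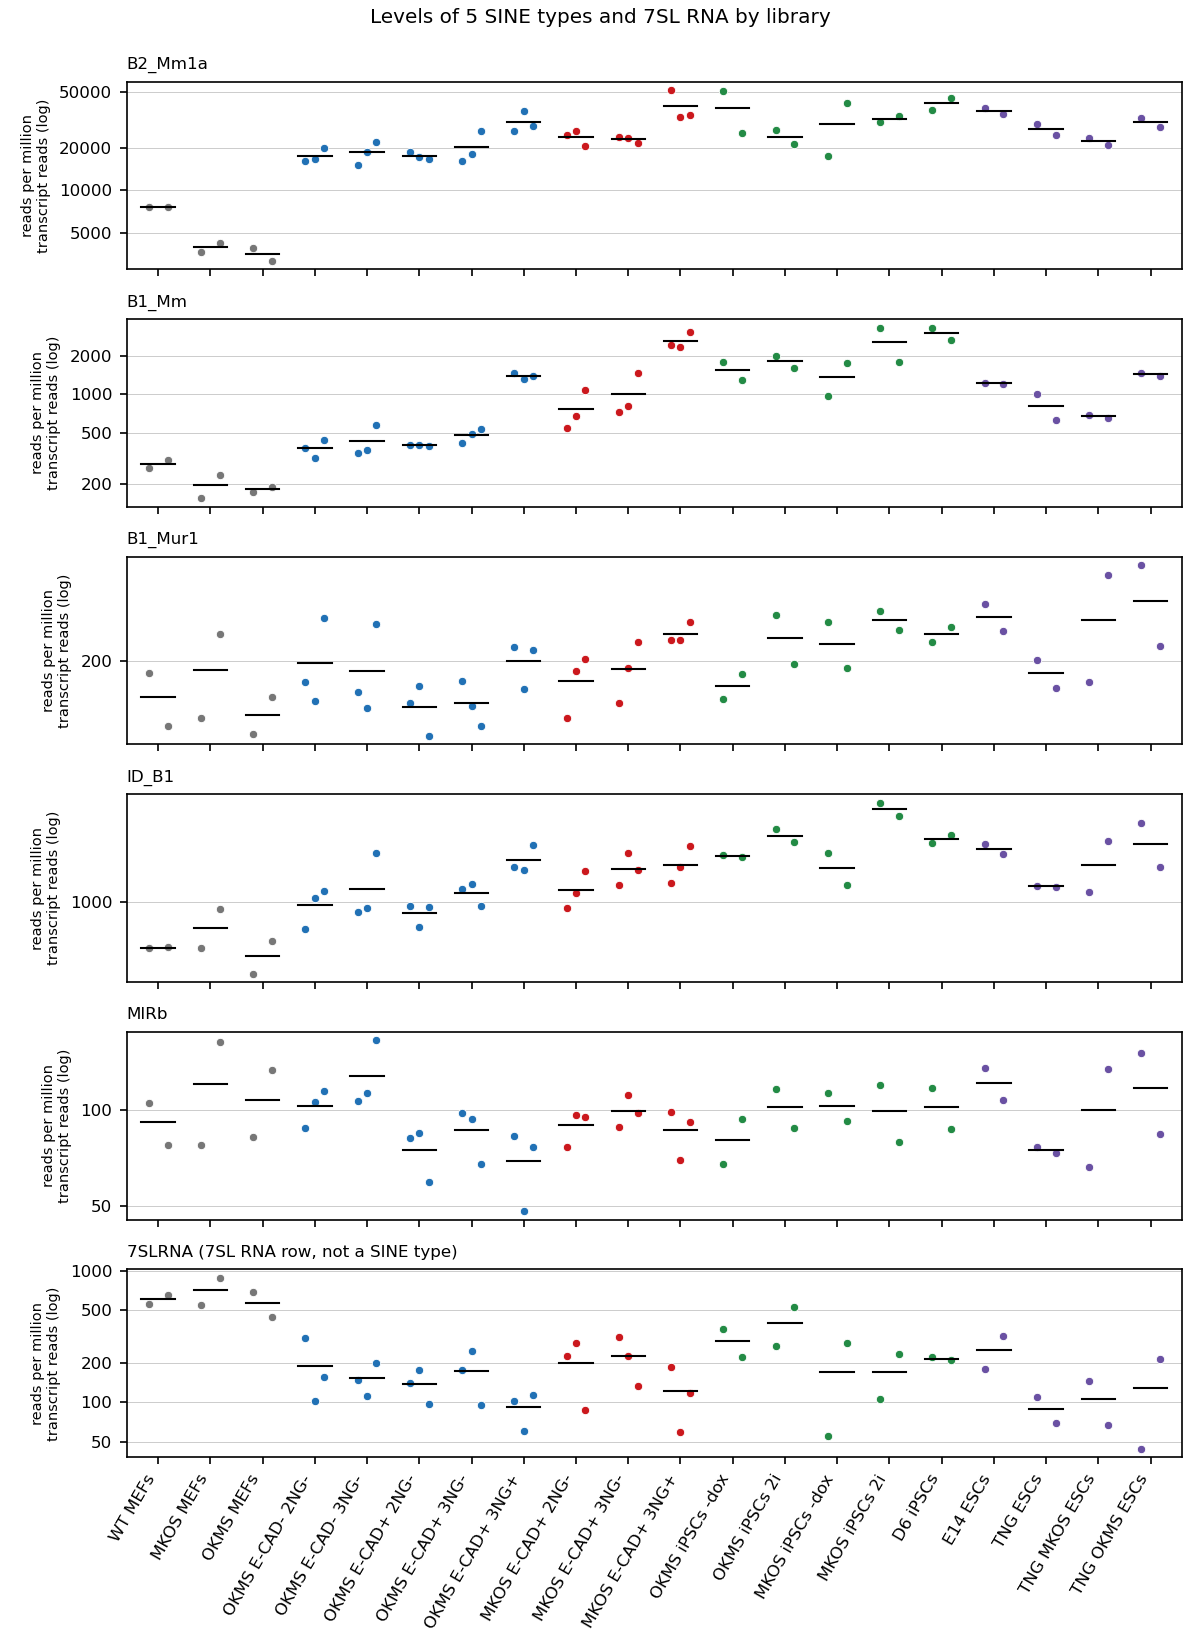
Level in RPM (log axis, a range of its own in each panel) of 5 SINE types and of 7SL RNA in each library, with condition means as black lines and colours by cell type. B2_Mm1a runs from 3176 in MEFs to 51523 in MKOS 3NG+ cells, whereas MIRb in MEFs (77.8 to 162) and ESCs (66.3 to 150) overlaps.

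The next question was at which step SINE reads were higher. From MKOS MEFs to MKOS E-CAD+ NG- cells, 8 of 32 types were higher and 0 lower, where 30.7% of all features were called and 15.3% called higher. The called types were B2_Mm1t, B2_Mm1a, B2_Mm2, B3, B1_Mm, B1_Mus1, B1_Mus2 and B1_Mur3. The median log2 fold change over the 32 types was -0.13, against 0.00 over all features. DESeq2 called 7 of these types higher, leaving out B3, and RSINE1 lower. B2_Mm1a was 3645 and 4255 RPM in the MEFs and 20787 to 26320 in the 6 NG- libraries (log2 fold change 2.45, SE 0.28, adjusted p = 5.351e-09). B1_Mm was 154 and 235 RPM in the MEFs and 544 to 1461 in NG- cells (2.05, SE 0.29). B3 went from 730 and 1120 RPM to 1333 to 1568, and its log2 fold change was 0.50 (adjusted p = 0.0396). No library of the NG- cells overlapped the MEFs for these 3 types. Without MKOS MEFs replicate 1, B3 was at 0.28 (adjusted p = 0.462) and B1_Mur3 at 0.27 (adjusted p = 0.506), neither called, and RSINE1 (-0.80), MIRb (-0.84) and PB1 (-1.29) were called lower. B3 also lost its call without 1 of 5 of the 6 NG- libraries (adjusted p = 0.05001 to 0.0576).

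From OKMS MEFs to OKMS E-CAD+ NG- cells, 10 types were higher and 0 lower, where 31.8% of all features were called and 15.3% called higher. They were the 3 B2_Mm types, B3, B1_Mm, B1_Mus1, B1_Mus2, ID_B1, PB1D11 and B4A. B2_Mm1a rose from 3894 and 3176 RPM to 16090 to 26528 RPM (log2 fold change 2.45, SE 0.28), and B1_Mm from 173 and 189 RPM to 395 to 532 RPM (1.31, SE 0.28). B4A, the weakest call, was 443 and 518 RPM in the MEFs and 558 to 677 in NG- cells (adjusted p = 0.0495). It lost its call without any 1 of 7 of the 8 libraries compared (edgeR adjusted p = 0.0528 to 0.194), and PB1D11 without any 1 of 6 of them (0.0504 to 0.263). B1_Mus1 and ID_B1 lost theirs without either OKMS MEF library (0.0728 and 0.0551 for B1_Mus1, 0.130 and 0.116 for ID_B1), and B3 without replicate 1 (0.0787). Without OKMS MEFs replicate 1 or replicate 2 the count was 5 and 6. DESeq2 called 8 types, without PB1D11 and B4A. Called with both cassettes, which have no library in common, were 7 types, which is 87.5% of those called with MKOS and 70% of those called with OKMS. The share of all features called with both cassettes was not counted, so this overlap is not set apart from that of other features.

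The difference between cassettes in this change was tested directly. No SINE type was called by edgeR or by DESeq2, 5 had an unadjusted p under 0.05, and 1.37% of all features were called. For B1_Mm the OKMS change minus the MKOS change was -0.74 on the log2 scale (95% interval -1.45 to -0.03, adjusted p = 0.369). For B2_Mm1a it was -0.01 (95% interval -0.66 to 0.65).

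Comparing the NG- cells themselves, MKOS E-CAD+ cells had more reads of 4 B1 types than OKMS E-CAD+ cells, and fewer of none. The share of all features called was 11.2%, and 6.32% were called higher in MKOS. B1_Mm was 544, 681 and 1072 RPM in MKOS 2NG- and 722, 813 and 1461 RPM in MKOS 3NG- cells, and 395 to 532 RPM in the 6 OKMS libraries. All MKOS libraries were above all OKMS libraries, the highest being replicate 3 of each MKOS population. The log2 fold change was 0.88 (SE 0.18, adjusted p = 0.00078). B1_Mus2 (0.85), B1_Mus1 (0.55) and B1_Mur3 (0.54) were the other called types, and their ranges overlapped between cassettes. B1_Mus1 lost its call without MKOS 2NG- replicate 3, MKOS 3NG- replicate 3 or OKMS E-CAD+ 3NG- replicate 1 (0.44 to 0.50, edgeR adjusted p = 0.05045 to 0.0781). DESeq2 added PB1D7. Without 1 library the count ran from 3 to 6. It was 6 without OKMS E-CAD+ 3NG- replicate 3, where B2_Mm1t (0.55, adjusted p = 0.0246) and B2_Mm2 (0.54, adjusted p = 0.0345) were called higher in MKOS. B2_Mm1a was 20787 to 26320 RPM in MKOS and 16090 to 26528 in OKMS cells (0.20, 95% interval -0.13 to 0.53). MKOS NG- cells also had higher pluripotency markers, summing to 2970 to 10174 RPM against 795 to 5513 (4 of 6 genes called, Dppa5a the most abundant), and higher fibroblast markers, at 342 to 910 against 69.0 to 261 RPM (4 of 6 called). Their part in the SINE difference was not tested.

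Within OKMS NG- cells, E-CAD+ and E-CAD- populations were compared, and 0 SINE types were called by edgeR, with 5 at an unadjusted p under 0.05 and 6.87% of all features called. DESeq2 called 1 type, B3A, lower in E-CAD+ cells. B2_Mm1a was 16090 to 26528 RPM in E-CAD+ and 15157 to 21889 in E-CAD- cells (log2 fold change 0.19, 95% interval -0.14 to 0.52). From 2NG- to 3NG- E-CAD+ cells, which differ in surface ICAM1, 0 SINE types were called by edgeR and 0 by DESeq2, 3 had an unadjusted p under 0.05, and 0.331% of all features were called. B2_Mm1a was 16841 to 26320 RPM in 2NG- and 16090 to 26528 in 3NG- cells (0.02, 95% interval -0.31 to 0.35).

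From 3NG- to 3NG+ cells, which differ in the Nanog reporter, young B1 and B2 types were called higher with both cassettes when all libraries were used. In MKOS cells, 7 of 32 SINE types were higher and 0 lower, where 1.75% of all features were called and 0.709% called higher. The called types were B1_Mm, B1_Mus1, B1_Mus2, the 3 B2_Mm types and B3. Relative to all repeat reads none of these calls held, with 0 SINE types higher and 2 lower, but that scaling moved the median of all features to -0.75 (45 features higher, 1644 lower), below the SINE median of -0.35. The median log2 fold change over SINE types was 0.37, and -0.02 over all features. In OKMS cells, 9 were higher and 0 lower, where 6.57% of all features were called and 3.54% called higher, with a median of 0.41 over SINE types and -0.01 over all features. Relative to all repeat reads, 2 were higher and 0 lower, with a median of -0.42 over all features (196 higher, 776 lower) and of 0.00 over SINE types. The 9 were the same 7 types with B1_Mur3 and ID2. The shared types were thus 100% of those called with MKOS and 77.8% of those called with OKMS, which have no library in common. At this step too, the share of all features called with both cassettes was not counted. DESeq2 called 8 and 13 types. Of 99 LINE-1 types, 3 were higher in the MKOS and 7 higher and 1 lower in the OKMS comparison.

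B1_Mm, B1_Mus1 and B1_Mus2 had the largest log2 fold changes at this step with both cassettes. Over the whole B1 family the median was 0.53 with MKOS and 0.64 with OKMS, below the medians of the B2 family with B3, 0.87 and 0.79. B1_Mm was 722, 813 and 1461 RPM in MKOS 3NG- cells and 2423, 2315 and 3041 RPM in MKOS 3NG+ cells. The groups did not overlap, and the log2 fold change was 1.56 (SE 0.26, adjusted p = 0.000505). In OKMS cells it was 420, 485 and 532 RPM before and 1461, 1303 and 1374 RPM after, also without overlap (1.73, SE 0.26, adjusted p = 2.8e-05). B1_Mus2 had log2 fold changes of 1.47 and 1.60 and B1_Mus1 of 1.16 in both. B1_Mm, B1_Mus1 and B1_Mus2 were still called when any 1 library was left out in either cassette.

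The B2_Mm types and B3 had smaller log2 fold changes than these 3 B1 types. B2_Mm1a was 23898, 23659 and 21582 RPM in MKOS 3NG- cells and 51523, 33042 and 34409 RPM in MKOS 3NG+ cells, which did not overlap (log2 fold change 0.93, SE 0.24, adjusted p = 0.0292). Replicate 1, the library with the highest share of repeat reads, was the highest. The MKOS call was lost when any 1 library other than 3NG+ replicate 3 was left out (log2 fold change 0.76 to 1.02, edgeR adjusted p = 0.0599 to 0.115). In OKMS cells B2_Mm1a was 16090, 18161 and 26528 RPM in 3NG- and 26447, 36697 and 28763 RPM in 3NG+ cells. The highest 3NG- library lay just above the lowest 3NG+ library (0.79, SE 0.24, adjusted p = 0.0365). This call was lost without any 1 of 5 of the 6 libraries, all but 3NG- replicate 3 (log2 fold change 0.62 to 0.87, adjusted p = 0.0593 to 0.213). B3 had log2 fold changes of 0.67 and 0.61. With MKOS its call was lost without any 1 of the 6 libraries (log2 fold change 0.63 to 0.73, edgeR adjusted p = 0.0784 to 0.167). With OKMS it was lost without any 1 except 3NG- replicate 3 (0.56 to 0.64, adjusted p = 0.0637 to 0.151). The MKOS call of B2_Mm2 was also lost without any 1 of the 6 libraries (0.80 to 0.92, adjusted p = 0.0664 to 0.136). That of B2_Mm1t was lost without any 1 library other than 3NG+ replicate 3 (0.75 to 0.95, edgeR adjusted p = 0.0748 to 0.108). With OKMS, B2_Mm1t lost its call without 3NG- replicate 1 or replicate 2 (edgeR adjusted p = 0.0725 and 0.0604). The OKMS call of B2_Mm2 was lost without either of these or 3NG+ replicate 2 (edgeR adjusted p = 0.0517 to 0.0861). ID2, a small type of 0.412 Mb, was 18.8, 15.0 and 15.1 RPM in OKMS 3NG- and 33.2, 30.8 and 23.03 RPM in OKMS 3NG+ cells (1.03, adjusted p = 0.0492), a call that was lost without any 1 of the 6 libraries (adjusted p = 0.0568 to 0.189). Without 1 library the MKOS count fell to between 3 and 5. It was 3 without any 1 of the 3 MKOS 3NG- libraries, without MKOS 3NG+ replicate 1 or without replicate 2. The OKMS count was 4 without OKMS 3NG- replicate 1 or replicate 2.

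Types outside these families gave no call at this step with all libraries, apart from ID2. Without OKMS 3NG+ replicate 2, the shallowest library, ID_B1 (0.51, adjusted p = 0.0450) and PB1D7 (0.64, adjusted p = 0.0435) were called higher with OKMS. MIRb was 88.0, 111 and 97.3 RPM in MKOS 3NG- and 98.2, 69.5 and 91.8 RPM in MKOS 3NG+ cells (log2 fold change -0.03, 95% interval -0.50 to 0.44). PB1D11 was 311, 298 and 427 RPM in MKOS 3NG- and 293, 198 and 259 RPM in MKOS 3NG+ cells, without overlap, at a log2 fold change of -0.31 (95% interval -0.75 to 0.14, adjusted p = 0.549). The fibroblast list summed to 512 to 910 RPM in MKOS 3NG- and 89.3 to 569 in MKOS 3NG+ cells, Col1a2 or Col3a1 being its most abundant gene, with 0 of 6 genes called and 1 at an unadjusted p under 0.05. In OKMS cells 0 of 6 were called as well. The shares of all features called were 1.75% with MKOS and 6.57% with OKMS. Whether the remaining fibroblast-like RNA bears on the SINE values was not tested.

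**Figure D4:**
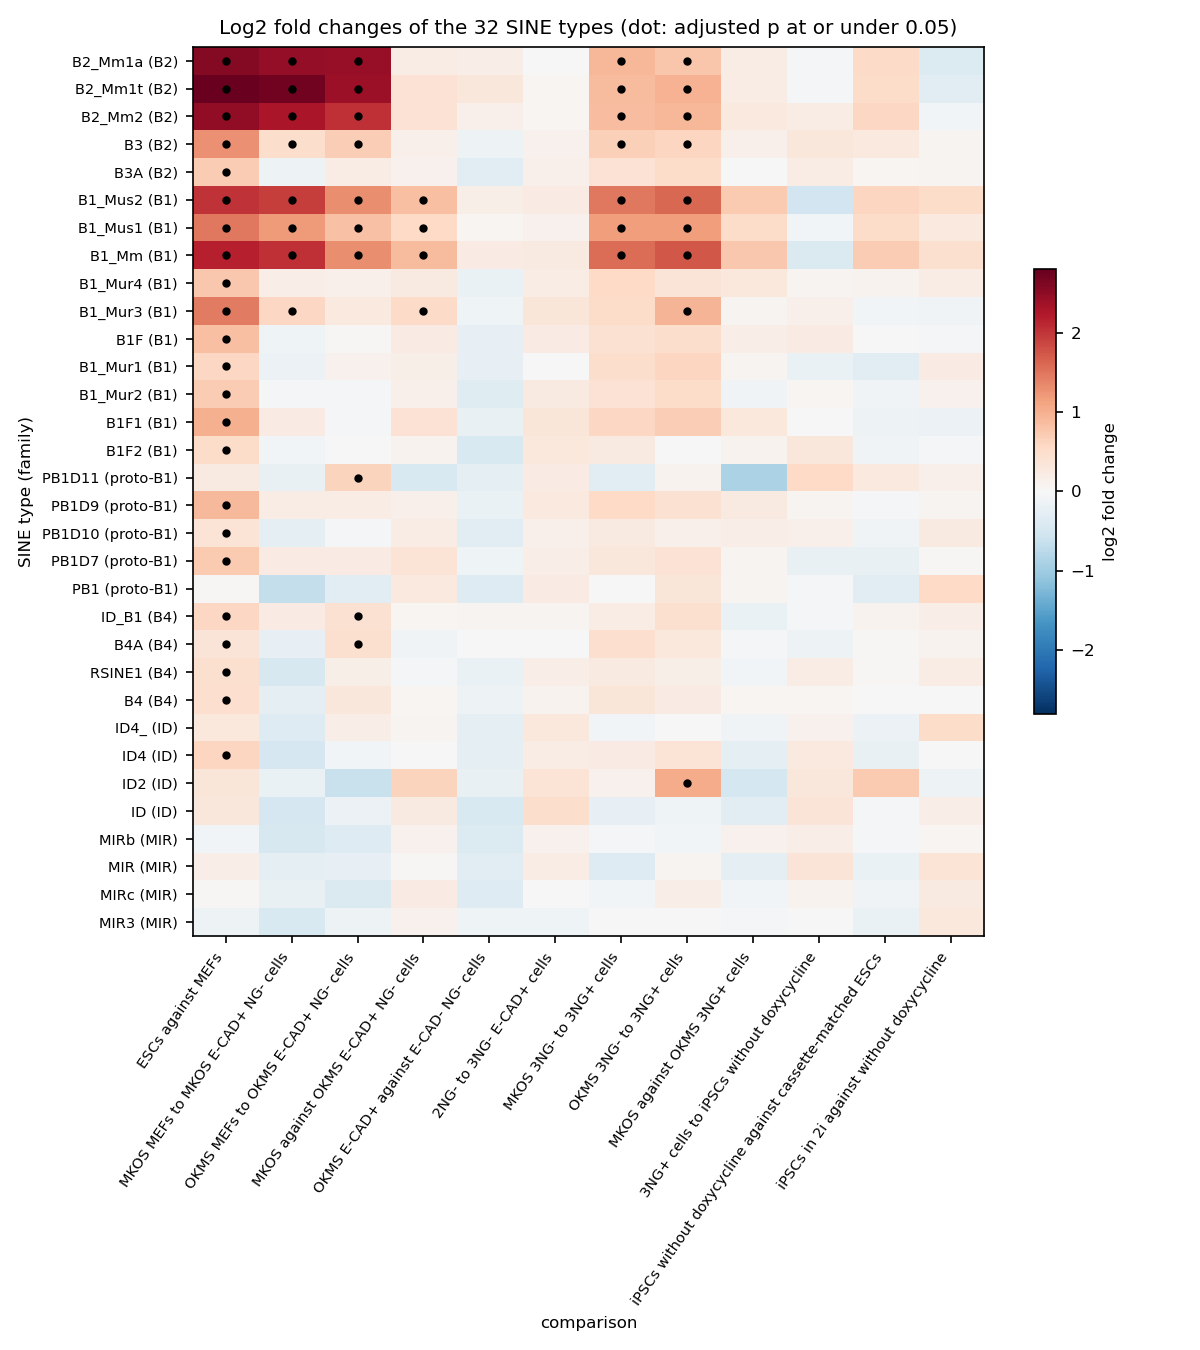
Log2 fold changes (colour, red for higher in the first-named or later group) of the 32 SINE types, ordered by family, in 12 comparisons, with a black dot where the adjusted p was at or under 0.05. The dots gather in the B2 and B1 rows, and no MIR row has one.

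The cassettes were then compared at this step. For the difference between cassettes in the change from 3NG- to 3NG+ cells, 0 SINE types were called by edgeR and 0 by DESeq2, 0 had an unadjusted p under 0.05, and 0.0236% of all features were called. The OKMS change minus the MKOS change was 0.17 for B1_Mm (95% interval -0.53 to 0.88). Between MKOS and OKMS 3NG+ cells, 0 types were called by edgeR, 4 had an unadjusted p under 0.05, and 0.65% of all features were called. DESeq2 called 1 type, PB1D11, lower in MKOS cells. B1_Mm was 2315 to 3041 RPM in MKOS and 1303 to 1461 RPM in OKMS 3NG+ cells, without overlap, at a log2 fold change of 0.75 (95% interval 0.25 to 1.25, adjusted p = 0.192). PB1D11 went the other way, at 198 to 293 RPM in MKOS and 331 to 525 in OKMS cells (-0.89, 95% interval -1.35 to -0.44, adjusted p = 0.0535).

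Established lines were compared with the cells before them and with each other. From 3NG+ cells to iPSCs -dox, 0 SINE types were called by edgeR, 3 had an unadjusted p under 0.05, and 3.15% of all features were called. DESeq2 called 1 type, PB1D11, higher in iPSCs, and edgeR called it without OKMS iPSCs -dox replicate 2. B1_Mus2 was 2120 to 4891 RPM in 3NG+ cells and 1520 to 2629 RPM in iPSCs (log2 fold change -0.53, 95% interval -0.92 to -0.15, adjusted p = 0.135).

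Between iPSCs -dox and the ESCs of the same cassette, 0 types were called by edgeR and 2 by DESeq2 (B1_Mm and B2_Mm2, higher in iPSCs), 7 had an unadjusted p under 0.05, and 1.45% of all features were called. B1_Mm was 969 and 1756 RPM in MKOS and 1785 and 1292 RPM in OKMS iPSCs, against 688 and 657 RPM in TNG MKOS and 1471 and 1393 RPM in TNG OKMS ESCs (log2 fold change 0.71, 95% interval 0.28 to 1.15, adjusted p = 0.0963). The ranges overlapped, and the libraries of each iPSC condition were far apart. Without MKOS iPSCs -dox replicate 1, or without OKMS iPSCs -dox replicate 2, the count was 4, namely B1_Mm and the 3 B2_Mm types.

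For iPSCs in 2i against -dox, 0 types were called by edgeR and 0 by DESeq2, 3 had an unadjusted p under 0.05, and 4.02% of all features were called. B2_Mm1a was 21206 to 33708 RPM in 2i and 17575 to 50876 RPM in -dox cells (log2 fold change -0.38, 95% interval -0.79 to 0.02). B1_Mus2 was 2378 to 5110 RPM in 2i and 1520 to 2629 RPM in -dox cells (0.52, 95% interval 0.10 to 0.93, adjusted p = 0.184). Over all 20 conditions together, an F test called 25 of 32 SINE types, where 59.7% of all features were called. The 7 types not called were B1F2, PB1, ID, ID4_, MIRb, MIRc and MIR3.

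A ratio of SINE types within a library does not depend on the number of transcript reads. B1_Mm reads per read of the older types B1_Mur1 to B1_Mur4 were 0.291 to 0.640 in MEFs, 0.492 to 0.607 in OKMS E-CAD- cells and 0.609 to 0.925 in OKMS E-CAD+ NG- cells. The ratio was 0.936 to 1.60 in MKOS NG- cells. In 3NG+ cells it was 1.60 to 1.72 for OKMS and 2.37 to 2.72 for MKOS. ESCs, at 0.514 to 1.35, lay below every 3NG+ library, while iPSCs covered 0.944 to 3.15 and D6 iPSCs held the highest value. The NG- populations were ordered by this ratio without overlap from OKMS E-CAD- through OKMS E-CAD+ NG- to MKOS NG- cells, while the lowest OKMS 3NG+ library and the highest MKOS NG- library, 3NG- replicate 3, were both at 1.60.

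B2_Mm1a reads per B3 read gave a different order. The ratio was 3.72 to 8.47 in MEFs, 12.01 to 19.2 in NG- cells, 16.0 to 21.7 in 3NG+ cells and 8.91 to 15.0 in ESCs. All NG- libraries were above all MEF libraries, but NG- and 3NG+ cells overlapped. The ratios are descriptions and were not tested.

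**Figure D5:**
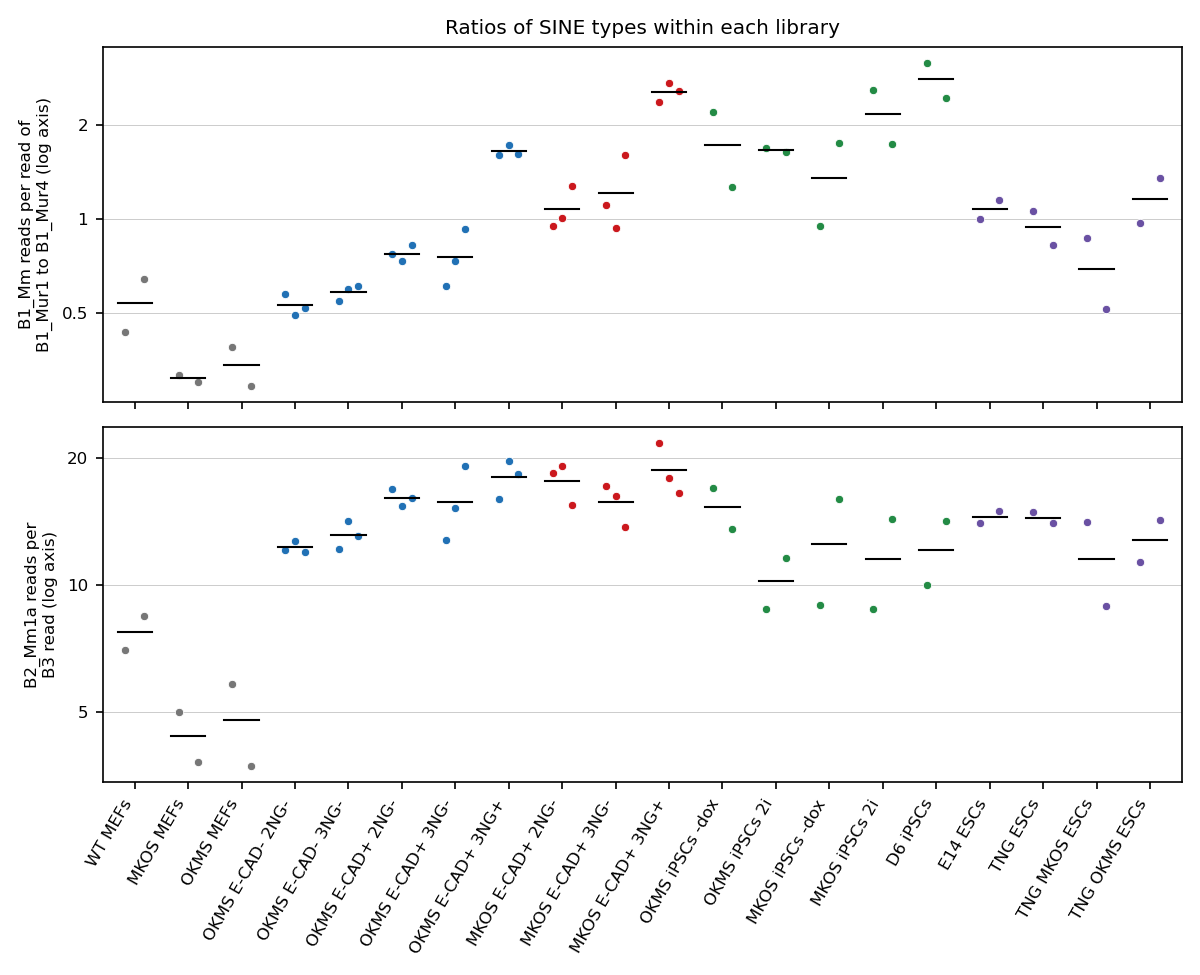
B1_Mm reads per read of B1_Mur1 to B1_Mur4 (top) and B2_Mm1a reads per B3 read (bottom) in each library, on log axes, with condition means as black lines and colours by cell type. The top ratio is 0.291 to 0.640 in MEFs and 1.60 to 2.72 in 3NG+ cells, and the bottom ratio separates MEFs (3.72 to 8.47) from NG- cells (12.01 to 19.2).

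RNA polymerase III makes SINE RNA, and its machinery was read from a list of 25 genes. In ESCs against MEFs 14 were higher and 2 lower, where 57.4% of all features were called and 28.3% called higher. Polr3g, a subunit with an alternative form called Polr3gl, was 3.34 to 8.20 RPM in MEFs and 38.7 to 68.3 RPM in ESCs (log2 fold change 3.30, SE 0.23). It already stood at 54.5 to 93.3 RPM in MKOS NG- and 46.5 to 67.7 RPM in OKMS E-CAD+ NG- cells, at log2 fold changes of 3.48 and 3.51 against the MEFs. From MEFs to NG- cells, 10 of the 25 were higher and 1 lower with MKOS and 6 were higher and 0 lower with OKMS, where 30.7% and 31.8% of all features were called. Polr3gl was the gene that was lower with MKOS (-1.87). From 3NG- to 3NG+ cells, 0 of 25 were called by edgeR with either cassette, and 2 (MKOS) and 5 (OKMS) had an unadjusted p under 0.05. Among all features 1.75% (MKOS) and 6.57% (OKMS) were called.

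Other polymerase III transcripts were also counted. Of 6 rows for structural RNAs, 4 were lower and 0 higher in ESCs than in MEFs, where 57.4% of all features were called. 7SL RNA (7SLRNA), the relative of B1, was 442 to 880 RPM in MEFs and 44.4 to 321 RPM in ESCs, without overlap (log2 fold change -2.21, SE 0.35). The others were 5S rRNA (-1.71), the neuronal BC1 RNA (BC1_Mm, -1.14), a relative of ID elements, and 7SK (-0.75), whose ranges overlapped between the groups. 7SL RNA was also lower in NG- cells than in MEFs with MKOS (-1.87) and OKMS (-1.88). In these comparisons 4 rows were lower and 0 higher with MKOS, where 30.7% of all features were called. With OKMS 2 were lower and 1 higher, where 31.8% of all features were called. The higher row was 4.5SRNA, at 1107 and 1025 RPM in OKMS MEFs and 1419 to 2254 RPM in NG- cells (0.82). PB1D11, whose levels had their extremes in the same libraries, was also called higher in that comparison. At the step to 3NG+ cells 1.75% (MKOS) and 6.57% (OKMS) of all features were called. Of the 6 rows, 0 were called with either cassette, and 0 had an unadjusted p under 0.05. How efficiently the protocol captures such RNAs is not given in the sources used here.

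Of 15 genes for proteins that bind or process SINE RNA, 8 were higher and 3 lower in ESCs than in MEFs, where 57.4% of all features were called and 28.3% called higher. Ezh2, a histone methyltransferase that binds B2 RNA, went from 11.3 to 23.3 RPM in MEFs to 56.7 to 150 RPM in ESCs (log2 fold change 2.25). Srp54a, a protein of the signal recognition particle, was lower (-1.12). From MEFs to NG- cells 1 was higher and 0 lower with MKOS, and 3 were higher and 1 lower with OKMS, where 30.7% and 31.8% of all features were called. From 3NG- to 3NG+ cells, the RNA helicase gene Mov10 (1.86) and Dicer1 (1.36), whose enzyme cuts double-stranded RNA, were higher with OKMS, and 0 were called with MKOS (2 at an unadjusted p under 0.05), where 6.57% and 1.75% of all features were called.

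Genes for silencing of repeats were read from a list of 21. Of these, 16 were higher in ESCs than in MEFs and 1 was lower, where 57.4% of all features were called and 28.3% called higher. Trim28, the corepressor of KRAB zinc finger proteins, went from 91.3 to 155 RPM in MEFs to 544 to 1518 RPM in ESCs (log2 fold change 2.60), and Hells, a chromatin remodeller needed for DNA methylation, rose from 7.58 to 17.4 RPM to 131 to 306 RPM (3.70). The gene that was lower was the H3K9 methyltransferase Suv39h1 (-1.59). From MEFs to NG- cells 9 (MKOS) and 12 (OKMS) were higher, where 15.3% of all features were called higher with each cassette, and in each the histone methyltransferase gene Ehmt2 was lower. From 3NG- to 3NG+ cells, 2 were higher and 1 lower with MKOS, and 7 higher and 1 lower with OKMS, where 1.75% and 6.57% of all features were called. Trim28 was higher in both (0.85 and 1.06) and Suv39h1 lower in both (-1.92 and -1.98).

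In 2i no SINE type was called, where 4.02% of all features were called. The DNA methyltransferase genes Dnmt3a (-2.91) and Dnmt3b (-1.90) and their cofactor Dnmt3l (-2.39) were lower than in -dox iPSCs. They were named from the list of 21 silencing genes, which did not all go this way. Setdb1, from the same list, was 50.4 to 77.2 RPM in 2i and 26.4 to 44.5 RPM in -dox cells, without overlap. Dnmt3a was 12.8 to 20.5 RPM in 2i and 84.7 to 190 RPM in -dox cells, without overlap. Dnmt3b was 35.2 to 43.7 RPM against 93.6 to 242 RPM.

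SINE calls depended on what reads were counted against. Relative to transcript reads and with all libraries and TMM, the SINE types that edgeR called from MEFs to NG- cells, from 3NG- to 3NG+ cells or in ESCs against MEFs were higher in the later or pluripotent group. Relative to repeat reads other than rRNA, of which SINEs themselves are 62.18%, the median of all features was -1.19 in ESCs against MEFs, 27 SINE types were called (5 higher and 22 lower), and 15 of the 23 called types, among them all 4 B4 types and B1_Mur1, turned negative. B2_Mm1a, B2_Mm1t, B2_Mm2, B1_Mm, B1_Mus1, B1_Mus2, B1_Mur3 and B3 kept their direction there.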

How the data were processed

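The authors aligned STRT reads with Bowtie and deposited raw counts per transcript and per repeat type, both strands of a repeat counted together and a read with several positions assigned to 1 of them. The submitters' processing notes name Bowtie 0.12.7 and mm10, whereas the methods name mm9, so no coordinate is given. The table lists 24264 transcripts, 1554 repeat types and 104 spike-ins. A repeat type's length is its total annotated length.

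Counts were tested with edgeR 4.0.16 (quasi-likelihood, R 4.3.3). Library size was the number of transcript reads times a TMM factor (0.8551 to 1.226), filterByExpr kept 16930 features including 1114 repeat types, the fit had 20 condition coefficients over 48 libraries, and p-values were adjusted by Benjamini-Hochberg over all features tested. RPM values use transcript reads without TMM. Standard errors were derived from the F statistic. Tests were two-sided. DESeq2 1.42.0 and other library sizes, filters, sample sets, a replicate block and leaving out each library were alternatives. The scripts were tested on simulated data. Depth of 1429717 to 14174725 transcript reads sets the counting error, and no libraries agreed within sampling noise (lowest chi-square per degree of freedom within a condition 13.36).

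The SINE members and all gene lists were chosen with earlier results of these data known. All SINE types were counted in every comparison. Values were to be printed for the 8 types with most reads, for called types (all up to 8 in a comparison, otherwise the 8 with the largest change) and for the type with most reads in each family, and for list genes only where called. Types and genes named beyond this rule, such as PB1D11 and ID2 where not called, and the markers, were chosen after their values were seen.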

Additional observations from a re-analysis of the deposited data

How the results depend on the processing

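Of 61 calls of a SINE type in a comparison, 57 held with a replicate block, 56 with DESeq2, 56 without a filter on low counts, 58 with the compared libraries alone, 53 without TMM, 52 with DESeq2 size factors, 48 with 41 libraries, 40 with all repeat reads as library size and 19 with repeat reads other than rRNA. The last setting and the set of 41 libraries, which drops replicate 3 of the 6 NG- populations and OKMS 3NG+ replicate 2, were chosen after seeing the data. The largest limit is the library size. SINEs are themselves 62.18% of the repeat reads other than rRNA over all libraries. Their share of these reads was 27.4% to 42.0% in MEFs and 56.8% to 71.0% in ESCs. How this bears on the calls with repeat reads other than rRNA as library size was not tested. Under that setting the median log2 fold change of all features was -1.19 in ESCs against MEFs, -0.77 and -0.85 from MKOS and OKMS MEFs to NG- cells and -0.74 and -0.76 from MKOS and OKMS 3NG- to 3NG+ cells.

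With repeat reads other than rRNA, counts of called types were 27 in ESCs against MEFs (5 higher, 22 lower), 25 from MKOS MEFs (5 higher, 20 lower) and 24 from OKMS MEFs to NG- cells (3 higher, 21 lower), 4 for each cassette from 3NG- to 3NG+ cells (2 higher, 2 lower) and 1, lower, for MKOS against OKMS 3NG+ cells. In ESCs against MEFs the log2 fold changes that turned negative were ID_B1 -0.63, B4A -0.85, PB1D10 -0.82, RSINE1 -0.74, B1F -0.37, B1F2 -0.68, B3A -0.50, B1F1 -0.20, PB1D7 -0.48, B1_Mur4 -0.44, ID4 -0.61, B1_Mur2 -0.50, B1_Mur1 -0.63, B4 -0.74 and PB1D9 -0.30. They were B3 -0.23 and B1_Mur3 -0.14 from MKOS MEFs, B3 -0.19, ID_B1 -0.44, B4A -0.41, B1_Mus1 -0.06 and PB1D11 -0.24 from OKMS MEFs, and B3 -0.06 and -0.12 from 3NG- to 3NG+ cells with MKOS and OKMS. With all repeat reads, counts were 6 from OKMS MEFs to NG- cells, 2 for MKOS against OKMS NG- cells, 2 from 3NG- to 3NG+ cells with MKOS (both lower, with all features at a median of -0.75) and 2 with OKMS (both higher, with all features at -0.42) and 11 for any difference, and B3 was at -0.07 with MKOS in that step.

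Without TMM, MKOS against OKMS NG- cells gave 9 and the MKOS 3NG step 4. With 41 libraries these gave 2 and 3, and 3NG+ cells to iPSCs and iPSCs against ESCs gave 1 each. The compared libraries alone gave 9 for MKOS against OKMS NG- cells (8 higher and 1 lower in MKOS). DESeq2 gave 1 for E-CAD+ against E-CAD- cells, 1 for MKOS against OKMS 3NG+ cells, 1 for 3NG+ cells to iPSCs and 2 for iPSCs against ESCs. No filter gave 3, 2 and 4 for the last 3. The causes were not tested.

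Over 84 pairs of libraries with the same replicate number the mean correlation of deviations was 0.0704, with 20 above 0.1, and over 168 pairs with different numbers it was -0.0351, with 3 above 0.1. Pairs with the same number were thus above 0.1 more often. The labels do not say whether libraries with the same number share a culture or batch. The main fit therefore did not pair the libraries by number, and a replicate block was run as an alternative. The replicate block gave 1 call for MKOS against OKMS 3NG+ cells and 1 for iPSCs against ESCs.

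Leaving out 1 library at a time gave 20 to 24 called types in ESCs against MEFs, 6 to 9 and 5 to 10 from MKOS and OKMS MEFs to NG- cells, 3 to 6 for MKOS against OKMS NG- cells, 3 to 5 and 4 to 9 from MKOS and OKMS 3NG- to 3NG+ cells, 0 to 1 from 3NG+ cells to iPSCs, 0 to 4 for iPSCs against ESCs and 24 to 27 for any difference.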
